A study of Papio anubis and Macaca fascicularis and Castor canadensis with 48 samples.

Results

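Gene expression in the cerebellum of long-tailed macaque (Macaca fascicularis) was set against that in the brain of baboon (Papio anubis), with 6 libraries of each, 12 of the 48 libraries in a bulk RNA sequencing series on mammalian longevity. The baboon and macaque libraries came from male wild-type young adults whose organs were collected at the Southwest National Primate Research Center. The organs were frozen on dry ice. The labels say "brain" for baboon without a region. Macaque gave no library labelled brain and baboon none labelled cerebellum, so the contrast joins a difference in brain region with a difference in species. Both species also gave liver (6 macaque and 6 baboon libraries) and kidney (5 macaque and 6 baboon libraries), and these 23 libraries show how the species differ where the organ is the same. Genes that differed alike in both of these organs were set aside before the rest was read as cerebellum against brain.

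The cerebellum is the hindbrain structure that adjusts movement. Its cortex is packed with small granule neurons, whose fibres excite the large inhibitory Purkinje neurons that carry its output, whereas the cerebral cortex and striatum are built from other neuron types. A bulk library sums all cells of a piece of tissue, so that fewer cells of a type and less RNA per cell cannot be told apart. The deposited table knows its genes only by mouse Ensembl IDs and does not pair these with names, and 0 of them matched the reference table of baboon genes. No gene is named for that reason, the 32 marker and pathway lists written as symbols could not be applied, and the organ labels could not be checked against markers. At most 2 IDs that were higher and 2 that were lower are printed for a contrast.

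Total counts were 14.8 M, 16.6 M and 20.5 M at the lowest, the median and the highest of the 6 cerebella, and 14.3 M, 15.8 M and 16.2 M in the 6 brains. At least 1 CPM (a gene's count scaled by the total of its library) was reached by 12345, 12432 and 12674 genes in the cerebella and by 12702, 12807.5 and 12825 genes in the brains, so every cerebellum had fewer such genes than every brain. Across genes, each cerebellum had a median Spearman correlation of 0.888 to 0.896 with the brains, 0.516 to 0.530 with macaque liver and 0.596 to 0.608 with macaque kidney. Cerebella correlated with the 2 beaver brains at 0.825 to 0.832, and baboon brains at 0.885 to 0.891. The libraries labelled cerebellum were thus close to libraries labelled brain and far from other organs of their own species, and beaver brain lay nearer to baboon brain. These correlations are across genes, which are not independent, and were not tested.

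Replicates were close to each other, more so in cerebellum. The median correlation of a library with the others of its group was 0.985 to 0.989 in cerebellum and 0.969 to 0.986 in brain, where replicate 2 was the lowest. Over 10213 genes with at least 5 CPM in both groups, the median SD of log2 CPM was 0.16 in cerebellum and 0.20 in brain. A range of over 4-fold was found for 143 of these genes among the cerebella and for 201 among the brains. Baboon brain replicate 2 was the library farthest from the median for 94 of those 201 genes, above it for 54 and below it for 40. For 40 of the 94 genes it deviated towards the cerebellar level. Without it 7659 genes were called for cerebellum against brain, in place of 7984.

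Cerebellum and brain differed in more than 1 in every 2 genes. Of 14466 genes tested, 7984 were called (adjusted p under 0.05 by edgeR's quasi-likelihood test over 35 baboon and macaque libraries), which is 55.2%. Of these, 3543 were higher (24.5% of the genes tested) and 4441 lower in cerebellum (30.7%). Most differences were small: 3732 called genes differed at least 2-fold and 1661 at least 4-fold (11.5% of the genes tested). At 4-fold or more, 568 genes were higher and 1093 lower in cerebellum. At 16-fold or more, 153 were higher and 338 lower.

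The balance of small differences depended on how libraries were scaled, and the balance of large ones did not. The median log2 fold change over all genes was -0.09 with TMM factors, which averaged 1.51 ± 0.0393 in cerebellum and 1.38 ± 0.0376 in brain (SD, n = 6 each). It was 0.04 with library totals alone, where 4323 called genes were higher and 3600 lower. A fit of the 12 libraries alone, which tested 13213 genes and so differs in more than scaling, called 4396 higher and 4310 lower. A small fold change in either direction therefore has to be read against the shift of the median. At 4-fold or more the lower genes outnumbered the higher ones under each of 4 scalings, from 626 higher and 1027 lower with library totals to 553 higher and 1127 lower with edgeR's relative log expression factors. Plain CPM gave 3406 genes with all 6 cerebella above all 6 brains (23.5%) and 2534 with all 6 below (17.5%), the balance of the unscaled totals.

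The species differed in fewer genes in liver and kidney. Macaque and baboon liver differed in 5006 genes (34.6%), 2497 higher (17.3%) and 2509 lower in macaque (17.3%). The kidneys differed in 3573 genes (24.7%), 1773 higher (12.3%) and 1800 lower in macaque (12.4%). A difference of at least 4-fold was called for 882 genes in liver (6.1%) and 751 in kidney (5.19%). Absolute log2 fold changes had a median of 0.55 for cerebellum against brain, 0.37 for liver and 0.30 for kidney. Every pair of a cerebellum and a brain had a lower correlation, 0.876 to 0.903 over 36 pairs, than every pair of livers, at 0.925 to 0.948, and every pair of kidneys, at 0.942 to 0.954. Across the 11150 genes measured in both organs (a mean of at least 1 CPM in 1 of the species in liver, and likewise in kidney), the species difference in liver correlated with that in kidney at r = 0.597. The contrast of cerebellum against brain correlated with it at r = 0.318 for liver and 0.352 for kidney. These are descriptions across genes of libraries that may come partly from the same animals.

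Genes that differed alike between the species in both liver and kidney numbered 1686 (11.7% of the genes tested), 851 higher and 835 lower in macaque. Of these, 1093 were also called for cerebellum against brain, or 64.8%, beside 53.9% of the genes not set aside. The sign was that of liver and kidney for 816 and the opposite for 277. The median log2 fold change of cerebellum against brain was 0.27 for the genes higher in macaque liver and kidney and -0.49 for those lower there. The same genes had medians of 0.70 and -0.95 averaged over liver and kidney, where they were chosen for passing the test, which by itself makes those values larger. Of the 326 genes with an average of 4-fold or more in liver and kidney, 178 were called with the same sign in cerebellum against brain, 38 with the opposite sign, and 110 were not called.

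The genes with the largest contrast among those set aside were present in 1 species and low or at 0 in the other in all organs compared. ENSMUSG00000027447 had no count in any of the 6 cerebella, against 776, 711, 1014, 1105, 832 and 852 CPM in the brains. It was at least 15183-fold lower in cerebellum, computed against 6 counts (3 read pairs) over the group. Here and for the other IDs at 0 the bound is the smaller of those with and without TMM scaling. In liver it averaged 0 CPM in macaque and 459 ± 53.9 CPM in baboon liver (SD, n = 6 each). In kidney it averaged 0.209 ± 0.407 CPM in macaque (n = 5) and 867 ± 185 CPM in baboon (n = 6). The organs thus showed the same presence in baboon and near absence in macaque.

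ENSMUSG00000064351 had 0.367, 0.760, 0.270, 0.293, 0 and 0.121 CPM in the cerebella, against 13787, 11518, 18654, 16750, 12685 and 14218 CPM in the brains. The groups lay far apart, at -15.62 ± 1.04 on the log2 scale (SE, adjusted p = 3.96e-14 by edgeR). The log2 fold change of macaque over baboon was -15.70 ± 1.06 in liver and -12.83 ± 1.01 in kidney, where macaque libraries reached 13.1 CPM. In the single white-footed mouse brain this ID had 78013 CPM, and in the beaver brains 45.0 and 5.64 CPM.

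The other pair was higher in macaque. ENSMUSG00000064360 had 667, 1533, 2480, 2709, 1611 and 1121 CPM in the cerebella, against 0.130, 0.124, 0, 0.140, 4.57 and 0.374 CPM in the brains. Brain replicate 5 held most of the counts on the low side, and the log2 fold change of 10.73 ± 0.80 (SE, adjusted p = 5.81e-13 by edgeR) was 13.23 without it. In liver the log2 fold change was 14.30 ± 1.01 and in kidney 13.82 ± 0.92. ENSMUSG00000027556 had 33.9, 29.6, 34.6, 29.2, 24.6 and 49.2 CPM in the cerebella and no count in the 6 brains, at least 477-fold higher in cerebellum (adjusted p = 2.61e-10 by edgeR). In liver it averaged 29.8 ± 21.6 CPM in macaque and 0.626 ± 0.883 CPM in baboon (n = 6 each), a log2 fold change of 5.49 ± 0.58. In kidney it averaged 223 ± 43.9 CPM in macaque (n = 5) and 0.137 ± 0.0890 CPM in baboon (n = 6), a log2 fold change of 10.66 ± 0.76. The step that gave macaque and baboon reads a mouse ID is not described in the labels, and its part in these differences was not tested.

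**Figure D1:**
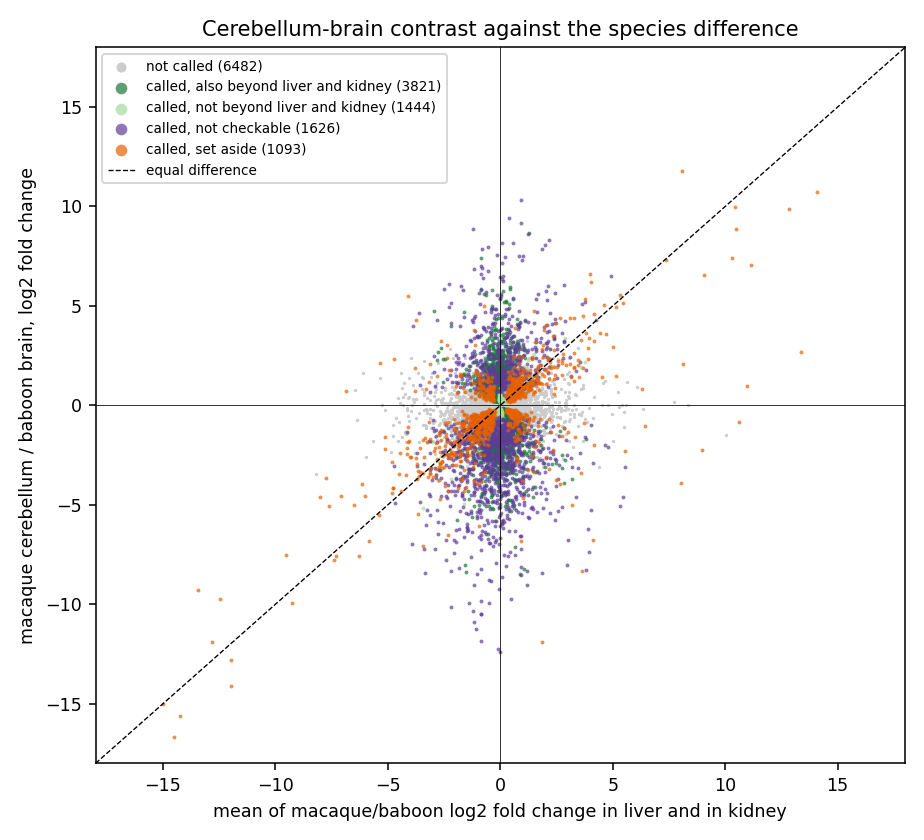
Each point is 1 of 14466 genes, with the log2 fold change of macaque cerebellum over baboon brain on the y axis and the mean of the macaque over baboon log2 fold changes of liver and kidney on the x axis. Genes set aside include nearly all points far out along the dashed line of equal difference, while the other called genes spread up and down around x = 0. Genes were set aside by the liver and kidney values that make up the x axis, which by itself favours this pattern.

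With those genes removed, 6891 called genes remained, 3035 higher and 3856 lower in cerebellum. For 4674 of them the plain CPM, without TMM scaling, of the 6 cerebella and 6 brains did not overlap (2538 higher and 2136 lower). Over all genes tested this held for 3406 higher (23.5%) and 2534 lower (17.5%). The 6891 were chosen for a called contrast, which by itself favours groups that do not overlap. Of the 6891, 5265 could be checked in liver and kidney. The species difference was called in neither organ for 3093 of these, in 1 organ for 2106, and in both but with opposite signs for 66. Among the 2106, the organ had the sign of the cerebellum-brain contrast for 1199 and the other sign for 907, so calls in a single organ went both ways.

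A test in the same fit asked for each gene whether the cerebellum-brain contrast differed from the mean species difference in liver and kidney. It called 6492 of 14466 genes (44.9%), 2996 with a higher and 3496 with a lower contrast (20.7% and 24.2%). At 4-fold or more it called 1500 genes (10.4%). Of the 5265 remaining genes that could be checked, 3821 were called with the sign of the contrast itself, or 72.6%, of which 1823 were higher and 1998 lower in cerebellum. The 5265 were chosen for a called contrast and for not differing alike in liver and kidney, values that this test uses again, so the choice favours a share above that of all genes. These 3821 genes had a contrast of cerebellum against brain that lay beyond the mean species difference of liver and kidney. It need not lie beyond that of each organ. The species difference was called in neither organ for 2389 of the 3821. At 4-fold or more the 3821 included 189 higher and 319 lower genes. The test does not separate region from a species difference found in neural tissue alone.

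Among these, the largest contrasts that met the rule for named genes (at least 20 CPM in the higher group and no overlap of libraries, met by 1334 higher and 919 lower genes) were those of 4 IDs. ENSMUSG00000004630 had 241, 211, 197, 251, 248 and 239 CPM in the cerebella, against 2.35, 0, 0, 0.419, 0 and 0.374 CPM in the brains. Every cerebellum was far above every brain, the log2 fold change being 8.66 ± 0.62 (SE, adjusted p = 1.89e-13 by edgeR) and the difference beyond liver and kidney 7.40 ± 0.67 (adjusted p = 1.40e-10 by edgeR). Without brain replicate 1, which held 2.35 CPM, these were 10.34 and 9.08. The same ID averaged 1.82 ± 0.594 CPM in macaque and 0.720 ± 0.440 in baboon liver (SD, n = 6 each), and 7.62 ± 2.40 in macaque (n = 5) and 3.15 ± 1.93 in baboon kidney (n = 6), where the species difference was called (adjusted p = 0.0352 by edgeR). The beaver brains had 0.127 and 0.394 CPM, on the side of the baboon brains.

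ENSMUSG00000040380 had 241, 285, 373, 315, 349 and 312 CPM in the cerebella, against 3.39, 0.990, 0.252, 1.67, 0.507 and 3.24 CPM in the brains. Its log2 fold change was 7.42 ± 0.85 (SE, adjusted p = 9.25e-09 by edgeR) and its difference beyond liver and kidney 8.27 ± 1.03 (adjusted p = 7.02e-08 by edgeR). Its liver level ranged from 1.07 to 39.0 CPM in macaque and from 0.955 to 44.6 CPM in baboon, so that the livers overlapped widely. In kidney it averaged 0.232 CPM in macaque and 1.04 CPM in baboon, so only baboon reached the 1 CPM limit. The kidney log2 fold change of -2.06 ± 1.19 (SE) was not called (adjusted p = 0.221 by edgeR). That uncalled negative value made the difference beyond liver and kidney larger than the contrast. Beaver brains had 0.127 and 0.394 CPM.

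ENSMUSG00000026414 had 0, 0.434, 1.35, 0, 0 and 0.727 CPM in the cerebella, against 144, 81.0, 115, 101, 167 and 54.2 CPM in the brains. Its log2 fold change was -8.23 ± 0.67 (SE, adjusted p = 4.62e-12 by edgeR) and its difference beyond liver and kidney -9.26 ± 0.76 (adjusted p = 1.23e-11 by edgeR), or -9.00 and -10.04 without cerebellum replicate 3. In kidney it averaged 12.9 ± 7.46 CPM in macaque (n = 5) and 6.23 ± 3.03 CPM in baboon (n = 6), which did not pass the test (adjusted p = 0.0994 by edgeR). In liver it averaged 1.03 ± 0.721 CPM in macaque and 0.486 ± 0.196 CPM in baboon (n = 6 each). That difference, near the 1 CPM limit, was not called either (adjusted p = 0.232 by edgeR). Both uncalled differences were positive, which made the difference beyond liver and kidney larger in size than the contrast. The beaver brains, at 1.02 and 0.394 CPM, sat with the cerebella here, and the white-footed mouse brain had 25.1 CPM.

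ENSMUSG00000047507 had 0.735, 0.543, 1.21, 0.585, 0 and 0.727 CPM in the cerebella, against 91.4, 687, 33.5, 20.2, 308 and 15.3 CPM in the brains. The brains did not overlap with the cerebella but spread widely among themselves, with replicates 2 and 5 far above the rest. Its log2 fold change was -8.36 ± 1.01 (SE, adjusted p = 2.25e-08 by edgeR), and its difference beyond liver and kidney was -6.83 ± 1.08 (adjusted p = 4.24e-06 by edgeR). Without brain replicate 2 these were -7.36 and -5.83. Kidney differed in the same direction, where the log2 fold change of macaque over baboon was -3.40 ± 0.84 (adjusted p = 0.00278 by edgeR).

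**Figure D2:**
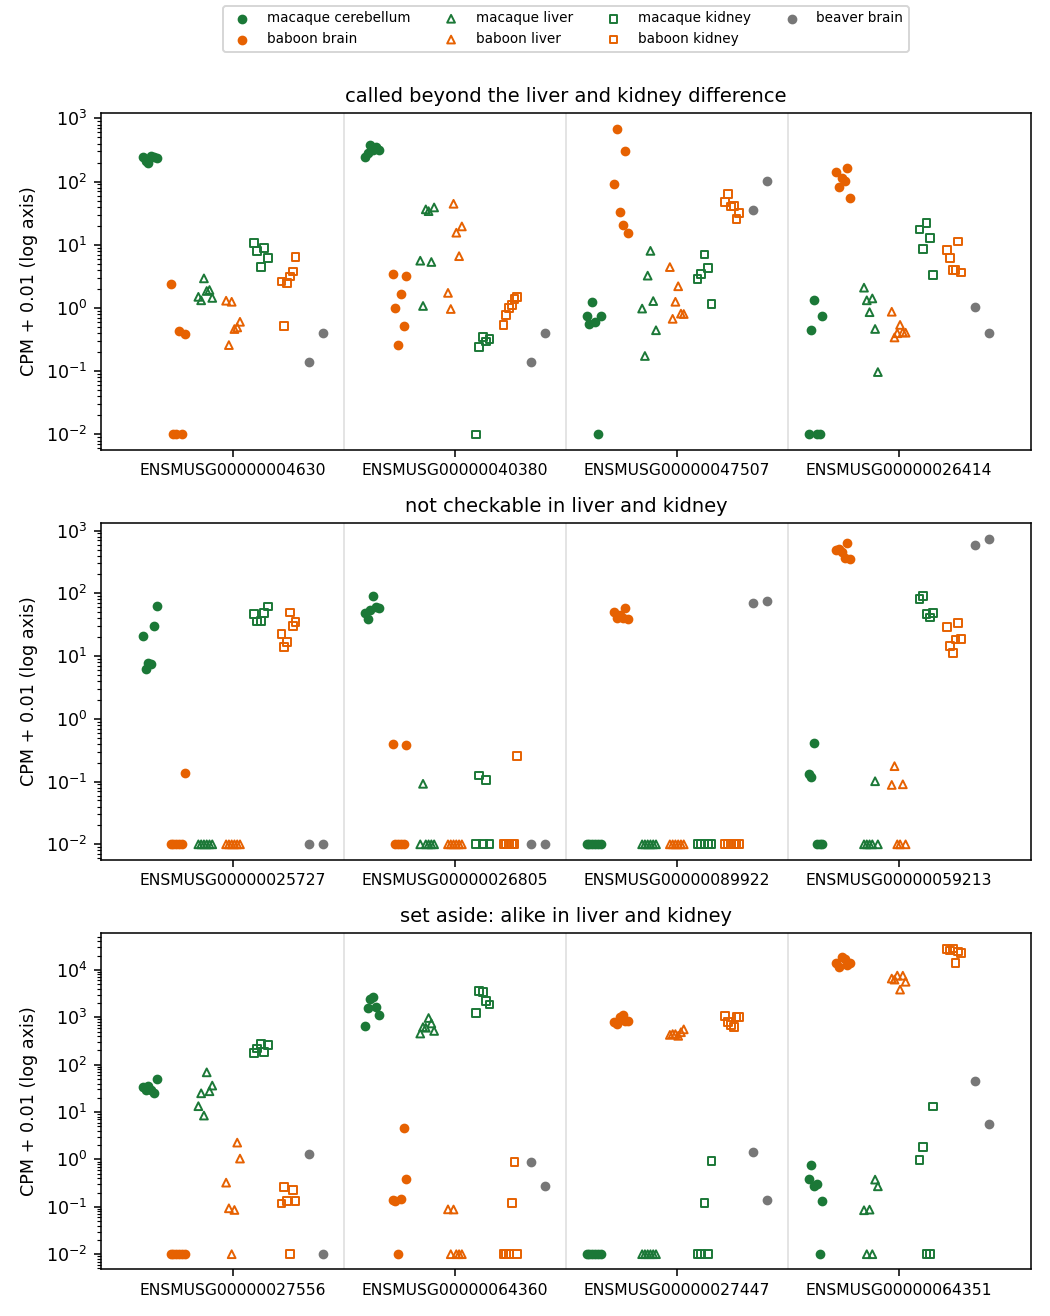
CPM of each library on a log axis, with 0.01 added so that zeros show, for the 12 IDs given in the text. Filled circles are cerebellum and brain, open triangles liver and open squares kidney, with macaque left of baboon in each pair. In the bottom row the 3 organs of a species lie together. In the upper rows cerebellum and brain lie farther apart than the livers or the kidneys do. The IDs of each row were chosen by rules on these same values, which by itself favours this pattern.

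Large contrasts were concentrated in genes that liver and kidney could not check. Of 3316 tested genes not measured in both organs, 966 were called at 4-fold or more (29.1%), against 695 of the 11150 measured in both (6.23%), and the share called at any size was 52.3% against 56.1%. The median absolute log2 fold change was 1.21 for genes not measured in both and 0.46 for those measured in both. Of the 3316, 1289 were measured in neither organ and passed the filter on low counts mainly through cerebellum or brain. That by itself favours large contrasts among them. Level matters too, as 4-fold calls were made for 23.8% of genes at 1 to 5 CPM and 5.62% at 100 CPM and over. Genes of equal level were not compared. After the set-aside, 1626 such genes remained called, 550 higher and 1076 lower in cerebellum, and at 4-fold or more 294 and 613. For these genes region and species cannot be told apart with the 2 organs, though 1 organ helped for some. Of the 1626, 813 were measured in kidney, where no species difference was called for 563, one of the same sign for 150 and one of the opposite sign for 100. A further 100 were measured in liver only, where no species difference was called for 59, and 713 in neither.

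The largest contrasts of cerebellum against brain outside the genes set aside lay here. ENSMUSG00000089922 had no count in the 6 cerebella, against 49.7, 40.5, 44.6, 40.6, 59.4 and 39.2 CPM in the brains. Cerebellum was thus lower by at least 786-fold (adjusted p = 7.82e-09 by edgeR), and the ID had no count in any liver or kidney of either species. The beaver brains had 69.5 and 74.9 CPM and the white-footed mouse brain 10.7 CPM, so that among the brain libraries it was at 0 in cerebellum alone. ENSMUSG00000059213 had 0.122, 0.109, 0.405, 0, 0 and 0 CPM in the cerebella, against 495, 505, 464, 363, 631 and 358 CPM in the brains. Its log2 fold change was -12.23 ± 0.50 (SE, adjusted p = 1.46e-19 by edgeR), or -13.20 without cerebellum replicate 3. Macaque kidney averaged 61.5 ± 22.4 CPM (n = 5) and baboon kidney 20.9 ± 8.60 CPM (n = 6), a species difference of the opposite sign (adjusted p = 9.17e-05 by edgeR). The beaver brains had 588 and 746 CPM and the white-footed mouse brain 529 CPM, all near the baboon brains.

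ENSMUSG00000026805 had 48.3, 39.4, 55.0, 89.6, 60.8 and 57.5 CPM in the cerebella, against 0.391, 0, 0, 0, 0 and 0.374 CPM in the brains. Its log2 fold change was 8.62 ± 0.61 (SE, adjusted p = 2.59e-12 by edgeR), or 9.30 without brain replicate 1 and 9.28 without brain replicate 6. All livers and kidneys of both species were at or below 0.246 CPM, and both beaver brains at 0, so this ID was counted almost only in cerebellum among the libraries looked at. ENSMUSG00000025727 had 21.2, 6.19, 7.69, 7.51, 30.4 and 63.7 CPM in the cerebella and 2 counts, as from 1 read pair, over the brains, both in replicate 6. The ratio with TMM scaling was 960 (95% interval from counting error 172 to 37930, adjusted p = 2.37e-09 by edgeR). Its fitted log2 fold change of 9.43 was 8.80 without cerebellum replicate 6 and 11.23 without brain replicate 6. It was also present in the kidneys, at 45.6 ± 10.7 CPM in macaque (n = 5) and 28.0 ± 13.2 CPM in baboon (n = 6), a difference that did not pass the test (adjusted p = 0.238 by edgeR).

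**Figure D3:**
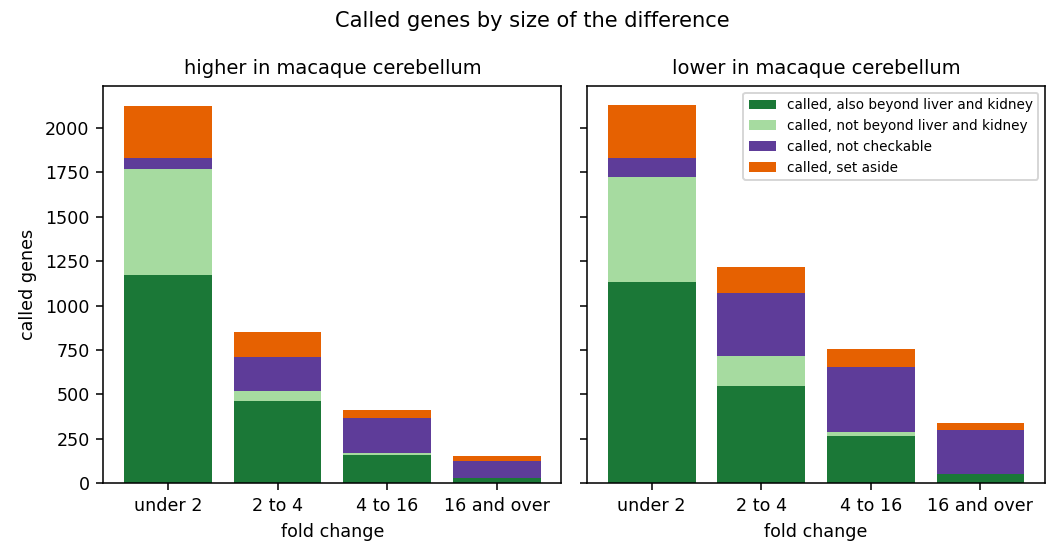
Number of called genes by size of the fold change, higher in macaque cerebellum on the left and lower on the right, stacked by whether liver and kidney could check the gene and what they showed. The smallest size class holds mostly genes measured in liver and kidney, and the class of 16-fold and over holds 97 higher and 245 lower genes that were not measured in both.

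Few genes were wholly present on 1 side and absent on the other. Only 3 genes had at least 1 CPM in all 6 cerebella and no count in the brains, among them ENSMUSG00000027556, and 18 had at least 1 CPM in all 6 brains and no count in the cerebella. No count in a group allows up to 0.0581 CPM (without TMM scaling) in cerebellum and 0.0642 CPM in brain, taking 3 read pairs over the group as the limit. Of the 18, 6 were set aside, 4 had no count in any macaque library, 11 lacked 1 CPM in every liver and kidney group, and 16 had a mean of at least 1 CPM in beaver or white-footed mouse brain. Of the 3, 0 had such a mean in those brains and 2 had no count in any baboon library. The share of all tested genes with such a mean was not set beside these counts, so they show no excess. For IDs with no count in a whole species, absence from the tissue and failure to count the gene in that species cannot be told apart.

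Genes with more expression in brain than in liver of another species were more often lower in cerebellum. Beaver gave 2 brains and 2 livers, which take no part in the contrast, and 2931 genes were called at 4-fold or more over liver in beaver brain. Of the 2841 of these that were tested here, 1242 were lower in macaque cerebellum than in baboon brain (43.7%, beside 30.7% of all genes) and 425 higher (15.0%, beside 24.5%). Their median log2 fold change was -0.45, beside -0.09 over all genes. Among genes enriched in beaver liver, 390 of 1674 were higher (23.3%) and 423 lower (25.3%). With library totals alone the beaver brain group had 18.4% higher and 39.3% lower, with a median of -0.32, while the genes in neither group had 33.7% higher and 21.5% lower, beside 27.4% and 27.9% with TMM. Without the genes set aside, and among those measured in liver and kidney, the beaver brain group held 1185 genes. Of these, 513 were lower (43.3%, beside 28.8% of all genes in that subset) and 169 higher (14.3%, beside 25.8%). The labels do not give the part of the brain taken from beaver either.

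**Figure D4:**
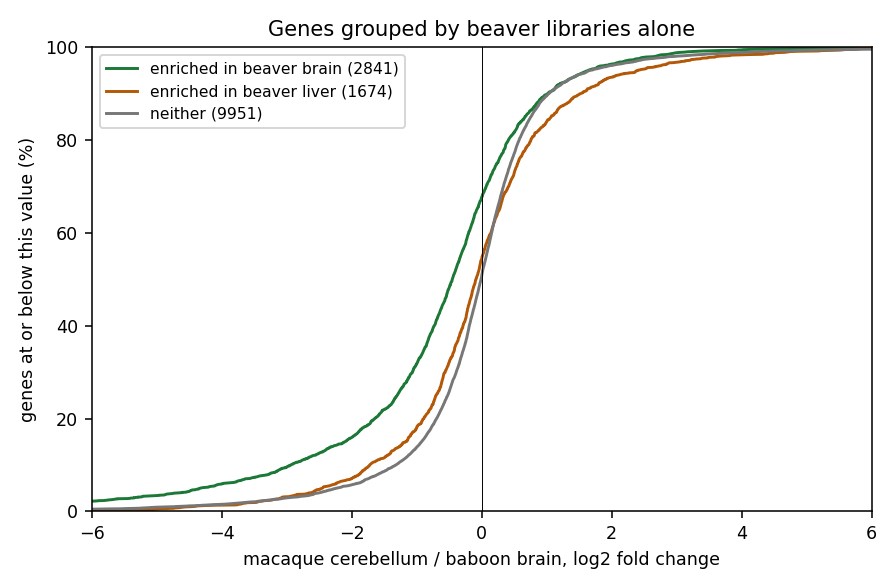
Cumulative share of genes against the log2 fold change of macaque cerebellum over baboon brain, for genes grouped with beaver libraries alone. The curve of genes enriched in beaver brain lies to the left of the others below and around 0, with a median of -0.45 against -0.09 for genes enriched in beaver liver and -0.01 for the rest.

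Beaver brain was nearer to baboon brain for most genes with a large contrast, while shares for the single white-footed mouse brain ran from 44.2% to 66.2%. To compare within species, brain or cerebellum was divided by the liver of the same species (log2 of mean CPM + 1), and each gene was asked whether beaver lay nearer to baboon or to macaque. Over all genes measured in beaver, 7560 of 12977 lay nearer to baboon (58.3%). Among genes called beyond liver and kidney at 4-fold or more it was 122 of 168 higher genes (72.6%) and 214 of 297 lower genes (72.1%). Among genes not measured in both organs it was 102 of 146 higher (69.9%) and 340 of 421 lower (80.8%). Only genes measured in beaver were counted here, out of 294 higher and 613 lower. A gene low in liver can be measured in beaver mainly through beaver brain. That by itself favours baboon among the lower genes.

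For the 297 lower genes called beyond liver and kidney at 4-fold or more and measured in beaver, the median log2 ratio to liver was -0.82 in macaque cerebellum, 1.40 in baboon brain and 1.15 in beaver brain. For the 168 higher genes it was 2.56 in macaque cerebellum, -0.04 in baboon brain and 0.47 in beaver brain. Beaver brain thus lay between the primates in both groups, and nearer to baboon. The genes were chosen for a contrast of 4-fold or more between these primate tissues. That by itself favours a beaver median between them. Among genes set aside and called at 4-fold or more, 24 of 47 higher (51.1%) and 64 of 95 lower (67.4%) lay nearer to baboon. The single white-footed mouse brain gave 56.8% and 66.2% for the higher and lower genes called beyond liver and kidney, beside 50.2% over all genes. For genes not measured in both organs it gave 63.4% of the higher and 54.7% of the lower, and for genes set aside 44.2% of the higher (19 of 43) and 53.2% of the lower. These shares were not tested.

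**Figure D5:**
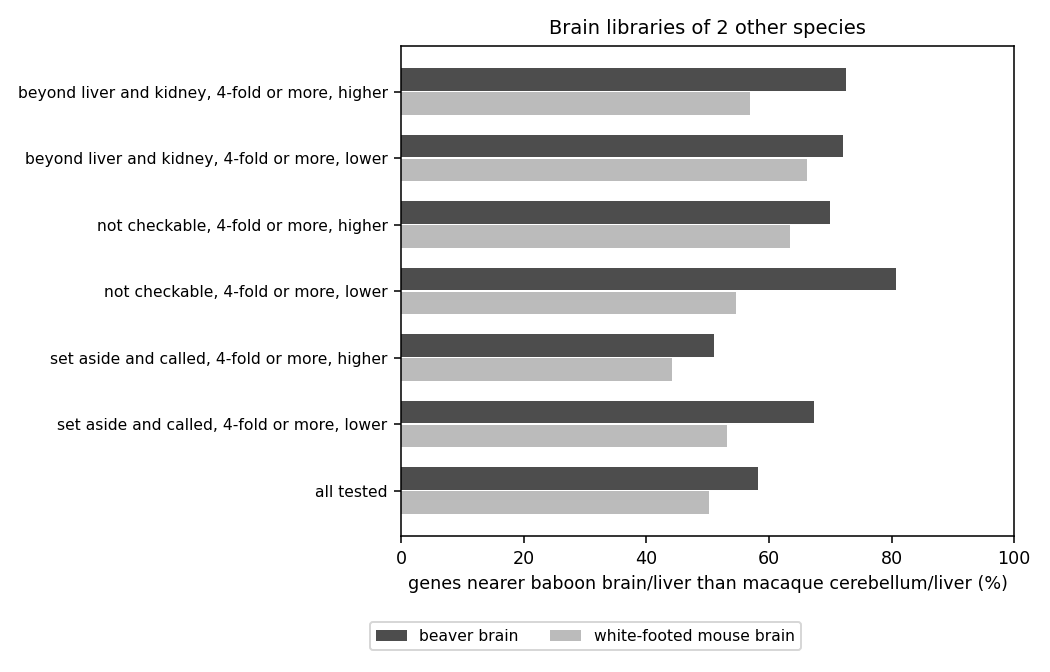
Share of genes whose ratio of brain to liver in beaver (dark) or white-footed mouse (light) lay nearer to that of baboon brain than to that of macaque cerebellum, by class of gene. Beaver reaches 72.6% and 72.1% for genes called beyond liver and kidney, against 58.3% over all genes tested, and white-footed mouse 56.8% and 66.2%, against 50.2%; its share for higher genes set aside is 44.2%.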

How the data were processed

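A single table of raw counts for 48 libraries and 16816 mouse Ensembl gene IDs was deposited by the authors. STAR and featureCounts are named in the submitters' processing notes. The labels give no versions, genome builds, strand setting or rule that assigns reads to mouse IDs. Near-identical or overlapping genes could not be recognised without names. All columns matched a sample by name. Counts up to 20 were even in 94.3% to 99.4% of cases per library, so 2 counts were taken as 1 read pair. Intervals and limits for 0 counts cover counting error only.

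The 35 baboon and macaque libraries were fitted together by species and organ with edgeR 4.0.16 in R 4.3.3 (TMM, filterByExpr defaults, two-sided quasi-likelihood F test, Benjamini-Hochberg adjustment over 14466 genes, SE from the F statistic). The method was tested on simulated data. The labels do not say that replicates are separate animals, so p-values measure the spread between these samples. A gene was set aside when called with the same sign in liver and kidney. Printed IDs are, per class, those with the 2 highest and 2 lowest log2 fold changes among called genes of at least 20 CPM in the higher group. Except for genes set aside, the 6 and 6 libraries also had to be free of overlap. Gene lists in symbols could not be used. Members and rules were chosen with earlier results of these data known. DESeq2 1.42.0, other scalings, filters, set-aside rules and leaving out each library were tried as alternatives.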

Additional observations from a re-analysis of the deposited data

Results flagged for a closer look

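In 4 of 32 groups of 6 values checked, a library lay far from the others. The limit used would flag about 1 in 20 groups of normally distributed values. That rate does not hold for CPM near 0, where 1 read pair in 1 library and 0 in the others is flagged. Groups wholly at 0 could not be flagged. ENSMUSG00000004630 had 2.35 CPM in baboon brain replicate 1, with the next brain at 0.419 CPM. ENSMUSG00000025727 had 0.125 CPM in baboon brain replicate 6 and 0 in the other brains. ENSMUSG00000064360 had 4.57 CPM in baboon brain replicate 5, with the next brain at 0.374 CPM. ENSMUSG00000059213 had 0.405 CPM in macaque cerebellum replicate 3, with the next cerebellum at 0.122 CPM. Each is on the low side of its contrast, in an ID picked for a large contrast.

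The contrast of cerebellum against brain differed from the mean species difference in liver and kidney for 6492 genes by edgeR's test of the difference itself. The log2 size of that difference was 7.40 for ENSMUSG00000004630, 8.27 for ENSMUSG00000040380, -6.83 for ENSMUSG00000047507 and -9.26 for ENSMUSG00000026414.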

How the results depend on the processing

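The counts for cerebellum against brain, liver and kidney stayed within 1.5 times of the reported ones under each alternative run. So did those for the remaining genes and the difference beyond liver and kidney. The 12 printed IDs kept their sign and call in each run that tested them. The run on the 11161 genes counted in every one of the libraries held none of the 12. The number set aside was 3987 when a call in either organ with the cerebellum-brain sign was enough and 558 when 2-fold in both organs was required, leaving 5539 and 7618 called genes. Leaving out each of 35 libraries gave 7563 to 8155 calls for cerebellum against brain, 4575 to 5045 for liver, 3097 to 3763 for kidney, 1514 to 1708 genes set aside, 6528 to 7055 remaining and 6158 to 6635 beyond liver and kidney.

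With the replicate number as a block, 8265 genes were called for cerebellum against brain, beside 8706 without it in the same 12 libraries. Same-numbered libraries of the species share only a number (correlation of deviations -0.174 to 0.0248). With the block by species and number, 6792 genes were called beyond liver and kidney. Within macaque each cerebellum correlated best with its own number in liver (6 of 6) and kidney (5 of 5), at 0.0460 to 0.138, a hint of shared animals from the data only; within baboon 5 of 6 brains did so for each organ.

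Where a liver or kidney group has no count at all (417 of the 1626 remaining genes not measured in both organs), the test of the difference beyond liver and kidney had SEs too large to make a call. Genes under 1 CPM were called less often (34.5%) than those of 100 CPM and over (59.5%).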

Other observations

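The most counted genes were largely the same in both tissues. Of the 100 genes with the highest mean CPM, 68 were shared by macaque cerebellum and baboon brain, and of the top 1000, 733. The top 100 held 18.8% of the counts in cerebellum and 21.5% in brain. Of the top 100 of cerebellum, 34 were higher and 24 lower in cerebellum than in brain, and of the top 100 of brain, 7 were higher and 56 lower. Each list was chosen on 1 of the tissues, which by itself favours that direction.

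The test of the difference beyond liver and kidney called 1379 genes that were not called for cerebellum against brain, and 435 of these were among the genes set aside. Those genes were chosen on the liver and kidney values that this test uses, which favours such calls, and a difference in region can also offset one between species, so the count says nothing of species differences in neural tissue. Of the 816 genes set aside whose contrast had the sign of liver and kidney, 594 were not called beyond those organs, 136 had a larger contrast and 86 a smaller one.

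Contrasts were smaller at higher levels of expression. The median absolute log2 fold change was 1.00 for the 1885 genes with a mean of 1 to 5 CPM over the 12 libraries and 0.40 for the 2401 genes with 100 CPM or more, and 4-fold differences were called for 23.8% and 5.62% of them.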
